A study of Mus musculus with 8 samples.

Results

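Cytosolic sulfotransferases and the enzyme that makes their sulfate donor were followed in livers of db/db mice. The set holds 8 genes of the 41388 features counted in each library, namely Sult2a1, Sult2a7, Sult1a1, Sult1b1, Sult1c2, Sult1d1, Sult5a1 and Papss2, each found by its gene symbol. These members were chosen from values of the same AdNAMPT to AdGFP contrast described here, with Sult2a7 singled out for its difference, so their differences between groups are given as a description with no test. A further 14 cytosolic sulfotransferase genes were read beside them.

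RNA was sequenced from liver tissue of littermate db/db mice on the strain labelled C57B/6J. The paper's reporting summary gives male mice for its db/db work. The db mutation disables the leptin receptor, and homozygous mice develop obesity with diabetes. In the AdGFP group (n = 4) an adenovirus carrying green fluorescent protein was injected through the tail vein, and in the AdNAMPT group (n = 4) the virus carried NAMPT, the enzyme that makes nicotinamide mononucleotide in NAD salvage. All 8 mice were randomised at 5 weeks and were 10 weeks old at sampling, and 4 to 5 weeks of overexpression are given for them. The paper gives shorter times after adenovirus, in hours in its methods and in days for white fat of db/db mice. The length of exposure before sampling is therefore uncertain. Both groups received a virus, and neither a lean mouse nor a db/db mouse without virus is part of the comparison. The genotype label of the AdGFP mice reads control, and db/db comes from the sample titles. Whole liver was used, so fewer cells of a type and less RNA per cell cannot be told apart.

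Cytosolic sulfotransferases (SULTs) move a sulfate group from 3'-phosphoadenosine 5'-phosphosulfate (PAPS) onto small molecules, which makes these more soluble in water and easier to excrete. SULT1 enzymes act mainly on phenols, catecholamines, thyroid hormone and estrogen, and SULT2A enzymes on hydroxysteroids and bile acids. In mouse liver several Sult2a and Sult3a genes are known for higher levels in females than in males, a pattern set by growth hormone.

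Library totals ran from 12006713 to 19879814 counts, and 3 counts corresponded to 0.151 to 0.250 CPM, the counts scaled to a common library total. All 8 hepatocyte markers were well above this in every library, and their summed level was 105948 to 133184 CPM in AdGFP and 105318 to 130384 CPM in AdNAMPT. Nampt, the gene named in the AdNAMPT virus, measured 102 to 153 CPM in AdGFP and 120 to 178 CPM in AdNAMPT. These ranges overlapped, so the groups rest on the labels, and whether a transcript of the virus was counted was not tested. Of 12270 genes that passed the filter, limma called 34 at the adjusted p threshold of 0.05, 2 higher and 32 lower in AdNAMPT. AdNAMPT replicate 1 received a sample weight of 0.440 in that fit, the lowest of the 8 libraries.

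The sequences printed next show how Sult2a7 differs from the paralogs around it on chromosome 7, and how much of the other paralogs is shared. Sult2a7 (ENSMUSG00000094156, GRCm38 chr7:14465159-14492926, minus strand) and Sult2a1 (ENSMUSG00000078798, chr7:13796246-13837409, minus strand) lie in the same cluster as Sult2a2 to Sult2a6 and Sult2a8. The coding sequence of Sult2a7 was 81.6% identical to that of Sult2a1 over 851 aligned bases and 70.9% identical to that of Sult2a8, whereas Sult2a1 and Sult2a2 were 97.9% identical. Coding stretches of 50 bases were searched only where Sult2a7 aligned without a gap to Sult2a1, Sult2a2 and Sult2a8. The Sult2a2 coding sequence has 582 bases against 939 for Sult2a7, so part of Sult2a7 was not searched. Among the stretches searched, Sult2a7 and Sult2a1 differed least at bases 262 to 311 of the Sult2a7 coding sequence of GENCODE M21. That stretch is printed with each base that differs from Sult2a7 in capitals.
Sult2a7: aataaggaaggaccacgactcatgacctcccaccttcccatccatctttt
Sult2a1: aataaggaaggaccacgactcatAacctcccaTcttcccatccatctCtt
Sult2a2: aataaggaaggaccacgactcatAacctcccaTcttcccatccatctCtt
Sult2a8: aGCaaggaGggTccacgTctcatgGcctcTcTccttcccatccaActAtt

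In that stretch Sult2a7 differed from Sult2a1 at 3 bases and from Sult2a8 at 10 bases, while Sult2a1 and Sult2a2 read the same. Among the stretches searched, the one that differed most from Sult2a1, bases 308 to 357, is printed in the same way.
Sult2a7: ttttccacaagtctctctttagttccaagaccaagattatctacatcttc
Sult2a1: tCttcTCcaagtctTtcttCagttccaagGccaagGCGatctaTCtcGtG
Sult2a2: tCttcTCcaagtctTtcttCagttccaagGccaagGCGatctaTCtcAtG
Sult2a8: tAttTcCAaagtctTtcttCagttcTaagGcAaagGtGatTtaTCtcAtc

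Sult2a7 differed from Sult2a1 at 13 of these bases. Of the 1273 stretches of 50 bases in Sult2a7 transcripts, the length of the reads, 0 occurred in a transcript of another gene. Only exact matches in GENCODE transcripts were searched, and the rest of the genome was not. The share found elsewhere was 33.2% for Sult2a1 and 62.1% for Sult2a2, chiefly in each other, 34.5% for Sult2a5 and 25.5% for Sult2a4. It was 7.36% for Sult1a1, 1.49% for Sult5a1, 0.723% for Sult1c2 and 0% for Sult1b1, Sult1d1 and Papss2. Since the authors counted only uniquely aligned reads, the levels of Sult2a1, Sult2a2, Sult2a4 and Sult2a5 are less certain than that of Sult2a7.

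Sult2a7 is a SULT2A enzyme of the hydroxysteroid and bile acid class. Its level was 572, 239, 530 and 516 CPM in AdGFP replicates 1 to 4, and 142, 242, 168 and 192 CPM in AdNAMPT replicates 1 to 4. AdGFP replicate 2 was low and lay just below AdNAMPT replicate 2 on the deposited CPM scale, so the groups overlapped there. After TMM scaling, which corrects for the makeup of each library, they did not overlap. On average AdGFP livers held 464 ± 152 CPM and AdNAMPT livers 186 ± 42.4 CPM (SD, n = 4 each). The limma estimate was a log2 fold change of -1.36 (SE 0.231, 95% interval -1.87 to -0.85), which is 2.56 times higher in AdGFP. Its estimate stayed between -1.56 and -1.21 over 16 alternatives. Sult2a7 is among the 34 genes called, but it was chosen on these values, so that call is no test of it. The call was also not stable, since it was made in 6 of the 16 alternatives, and among the settings without it were edgeR, voom without sample weights, scaling on library size alone, no filter on low counts, and each fit that left out AdGFP replicate 1, 3 or 4 or AdNAMPT replicate 3 or 4. Leaving out AdNAMPT replicate 1, AdGFP replicate 2 or both gave estimates of -1.34, -1.55 and -1.54.

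**Figure D1:**
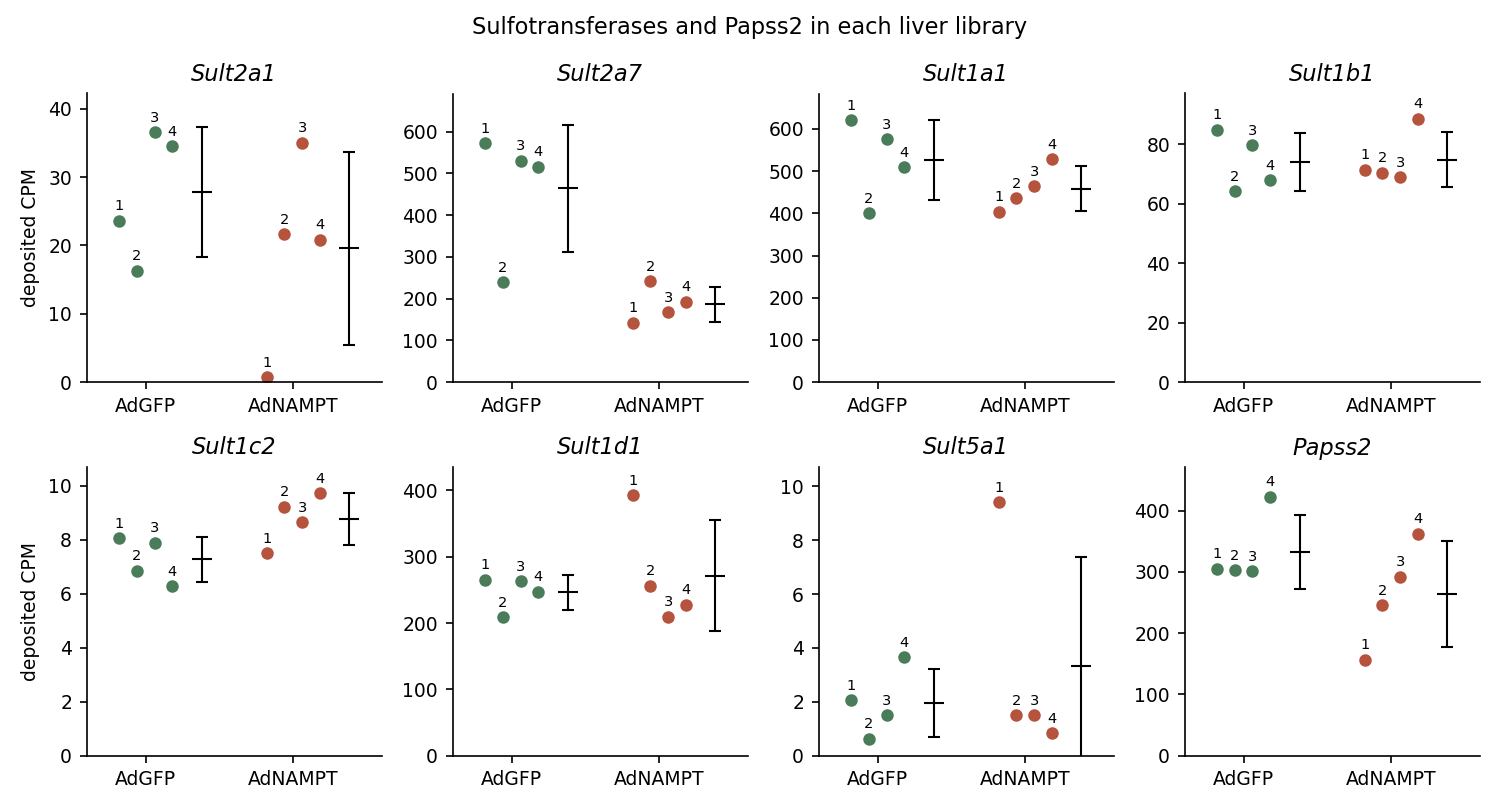
Deposited CPM (y axis, from 0, a scale of its own in each panel) of the 8 members in each liver; numbered points are the replicates of AdGFP (green) and AdNAMPT (red), and the black mark with its bar is the mean ± SD of 4, cut at 0 for Sult5a1. Sult2a7 sits at 516 to 572 CPM in 3 AdGFP livers and at 142 to 242 CPM in the 4 AdNAMPT livers, with AdGFP replicate 2 at 239 CPM, and Sult2a1 is nearly absent from AdNAMPT replicate 1.

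Sult2a1 encodes the classical hydroxysteroid sulfotransferase of the family. Its level was 23.6, 16.3, 36.6 and 34.6 CPM in AdGFP replicates 1 to 4, and 0.750, 21.6, 35.1 and 20.9 CPM in AdNAMPT replicates 1 to 4. Only AdNAMPT replicate 1, with 9 counts, stood apart, and the other 3 AdNAMPT livers lay inside the AdGFP range. The log2 fold change was -0.77 (SE 0.627, 95% interval -2.15 to 0.61), and -0.22 without AdNAMPT replicate 1.

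Sult1a1 (ENSMUSG00000030711, chr7:126672865-126676432) encodes the main phenol sulfotransferase. It measured 621, 401, 575 and 510 CPM in AdGFP replicates 1 to 4, and 404, 436, 464 and 528 CPM in AdNAMPT replicates 1 to 4. The groups overlapped widely, and the log2 fold change was -0.31 (SE 0.123, 95% interval -0.58 to -0.04). Sgf29 overlaps Sult1a1 on the other strand and had 115 to 209 counts a library; whether the counting used strand is not given in the sources used here.

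Sult1b1, which sulfates thyroid hormones, lies on chromosome 5 beside Sult1d1. Its level was 84.9, 64.2, 79.7 and 67.9 CPM in AdGFP replicates 1 to 4, and 71.4, 70.5, 68.9 and 88.7 CPM in AdNAMPT replicates 1 to 4. The ranges lay over each other, with a log2 fold change of -0.10 (SE 0.109, 95% interval -0.34 to 0.14). Sult1d1, which sulfates catecholamines, measured 265, 209, 263 and 247 CPM in AdGFP replicates 1 to 4, and 393, 256.4, 209 and 228 CPM in AdNAMPT replicates 1 to 4. AdNAMPT replicate 1 was the highest of the 8 livers. The log2 fold change was -0.09 (SE 0.132, 95% interval -0.38 to 0.20), while the plain mean was higher in AdNAMPT (272 ± 83.1 against 246 ± 26.2 CPM; SD, n = 4 each). The estimate was above 0 in 5 of 16 alternatives, edgeR and DESeq2 included.

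Sult1c2 and Sult5a1 were the members at the lowest levels. Sult1c2, another SULT1 enzyme, measured 8.06, 6.85, 7.88 and 6.28 CPM in AdGFP replicates 1 to 4, and 7.50, 9.22, 8.65 and 9.73 CPM in AdNAMPT replicates 1 to 4. It was the only member with a higher estimate in AdNAMPT, at a log2 fold change of 0.20 (SE 0.121, 95% interval -0.06 to 0.47), and the groups overlapped. Sult5a1, a less studied sulfotransferase, measured 2.05, 0.635, 1.49 and 3.65 CPM in AdGFP replicates 1 to 4, and 9.41, 1.502, 1.51 and 0.825 CPM in AdNAMPT replicates 1 to 4. AdNAMPT replicate 1 was far above every other liver. The log2 fold change was -0.33 (SE 0.537, 95% interval -1.51 to 0.86), and it was above 0 in 6 of 16 alternatives, reaching 0.65 with DESeq2, so these data give Sult5a1 no direction.

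Papss2 (ENSMUSG00000024899, chr19:32620005-32667187, plus strand) encodes the PAPS synthase that predominates in liver. Its level was 305, 303, 301 and 423 CPM in AdGFP replicates 1 to 4, and 157, 245, 292 and 362 CPM in AdNAMPT replicates 1 to 4. The groups overlapped, and AdNAMPT replicate 1 was the lowest liver. The log2 fold change was -0.42 (SE 0.188, 95% interval -0.84 to -0.01), and -0.26 without AdNAMPT replicate 1.

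Over the 8 members the estimate was lower in AdNAMPT for 7 and higher for 1, and the median log2 fold change was -0.32 against 0.002 over all genes tested. At an adjusted p of at most 0.05, 1 of 8 members was called, where 0.277% of all tested genes were called in either direction and 0.261% as lower. Likewise 1 member had groups that did not overlap and lay lower in AdNAMPT on the TMM scale, where 2.70% of all genes did. The members were chosen on this contrast, so nothing is read from these shares. The summed level of the members was 1239 to 1882 CPM in AdGFP and 1185 to 1431 CPM in AdNAMPT, with AdGFP replicate 2 the lowest of its group. That library was the lowest AdGFP liver for 6 of 8 members.

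**Figure D2:**
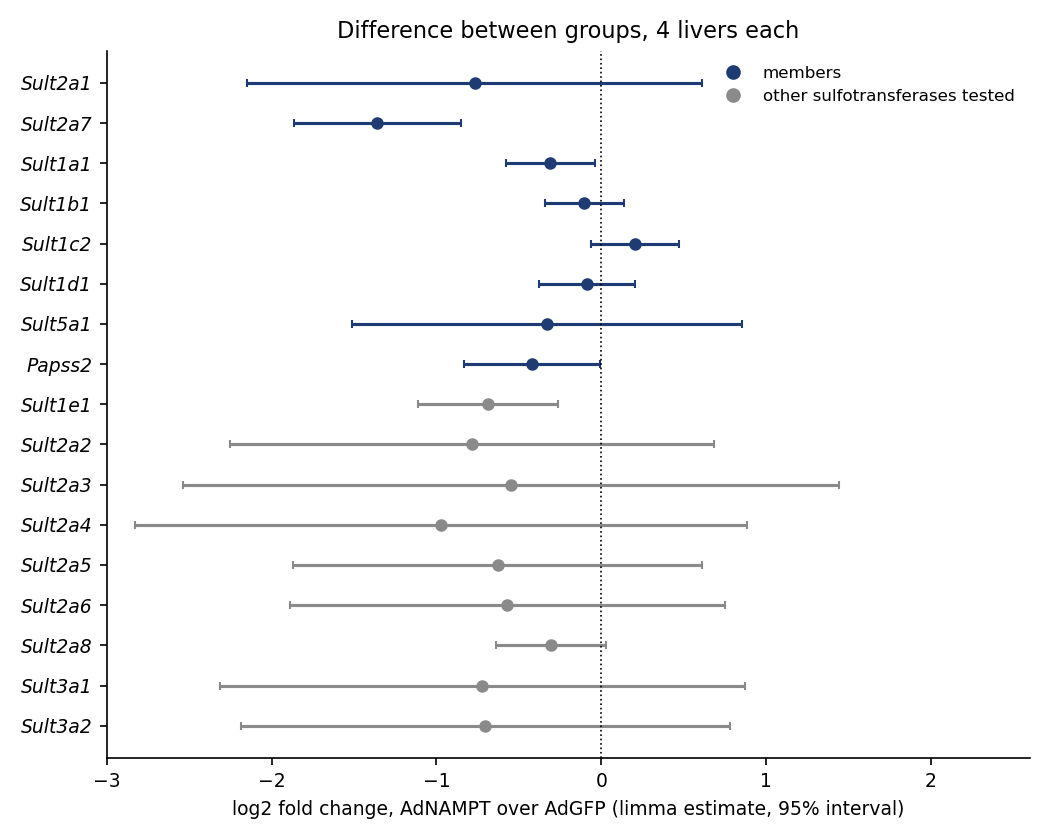
Log2 fold change of AdNAMPT over AdGFP (x axis; limma estimate with its 95% interval, 4 livers a group) for the 8 members (blue) and the 9 other cytosolic sulfotransferases tested (grey). Sult2a7 lies farthest from 0 at -1.36, and the wide intervals of Sult2a1 to Sult2a6 and Sult3a1 and Sult3a2 go with their spread in the AdNAMPT group.

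Of the 14 other cytosolic sulfotransferases, 9 were tested, and the remaining 5, Sult1c1, Sult2b1, Sult4a1, Sult6b1 and Sult6b2, were at 0 to 0.151 CPM in every library. The estimate was lower in AdNAMPT for all 9, with a median log2 fold change of -0.69, but limma called 0 of 9, edgeR 0 and DESeq2 0, and 1 of 9 had an unadjusted p under 0.05, compared with 9.69% of all genes. That gene was Sult1e1, which inactivates estrogen by sulfation. It measured 155, 109, 172 and 117 CPM in AdGFP and 61.5, 95.3, 131 and 73.5 CPM in AdNAMPT, with overlapping groups, a log2 fold change of -0.69 (SE 0.193) and an adjusted p of 0.331.

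Sult2a8, a bile acid sulfotransferase, measured 602, 346, 510 and 529 CPM in AdGFP and 599, 456, 408 and 369 CPM in AdNAMPT, with a log2 fold change of -0.31 (SE 0.152, limma adjusted p = 0.562). The remaining 7 genes were Sult2a2 to Sult2a6, Sult3a1 and Sult3a2, the last pair known for sulfating amines, and their estimates ran from -0.97 for Sult2a4 to -0.55 for Sult2a3. These estimates moved with a single liver. Sult2a2 measured 53.0 to 78.2 CPM in the other 7 livers and 1.58 CPM in AdNAMPT replicate 1, and Sult3a1 137 to 216 CPM and 4.41 CPM. Sult2a4 was at 6.57 to 10.8 CPM in the other 7 livers and had 0 counts in AdNAMPT replicate 1, where 3 counts would be 0.250 CPM. Without that liver the estimates were -0.17 for Sult2a2, -0.24 for Sult2a4 and -0.08 for Sult3a1, and that of Sult2a3 turned to 0.20.

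The pattern of AdNAMPT replicate 1 separated the members. Of the 17 sulfotransferase and Papss2 genes tested, 8 were under 10% of the median of the other 7 livers there, namely Sult2a1, Sult2a2, Sult2a3, Sult2a4, Sult2a5, Sult2a6, Sult3a1 and Sult3a2. Sult2a7 was at 58.8% of that median, Papss2 at 51.8%, Sult1a1 at 79.3%, Sult1b1 at 101%, Sult2a8 at 132%, Sult1d1 at 159% and Sult5a1 at 626%. Genes that the list of female-biased liver genes holds moved in the same library. Their mean log2(CPM + 1) was 2.56 in AdNAMPT replicate 1 and 4.13 to 4.36 in the other 7 livers. For 20 male-biased liver genes the same mean was 5.975 there and 4.063 to 4.514 elsewhere. The summed level of the male-biased genes was 9411 CPM there and 1838 to 3209 CPM elsewhere. Mup3 made up the largest part of that sum in AdNAMPT replicate 1, where Bcl6 of the same list lay inside the range of the other livers. Cyp2b9, a female-biased cytochrome P450, measured 164 CPM in that liver and 500 to 681 CPM in the others.

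Genes of the Y chromosome were expressed in all 8 livers. The 4 read, Ddx3y, Eif2s3y, Kdm5d and Uty, were picked after the values of that library were seen. Ddx3y measured 97.0 to 136 CPM, Eif2s3y 46.5 to 56.9 CPM, Kdm5d 21.3 to 25.15 CPM and Uty 29.0 to 37.4 CPM. Ddx3y and Eif2s3y were highest in AdNAMPT replicate 1, and Kdm5d and Uty in AdGFP replicate 1. Xist, the noncoding RNA that silences an X chromosome in female cells, was at 0 to 0.500 CPM in 7 livers and at 21.3 CPM in AdNAMPT replicate 4, which also expressed the Y genes. Without AdNAMPT replicate 4 the estimate for Sult2a7 was -1.29. The part of these differences in the members' values was not tested.

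**Figure D3:**
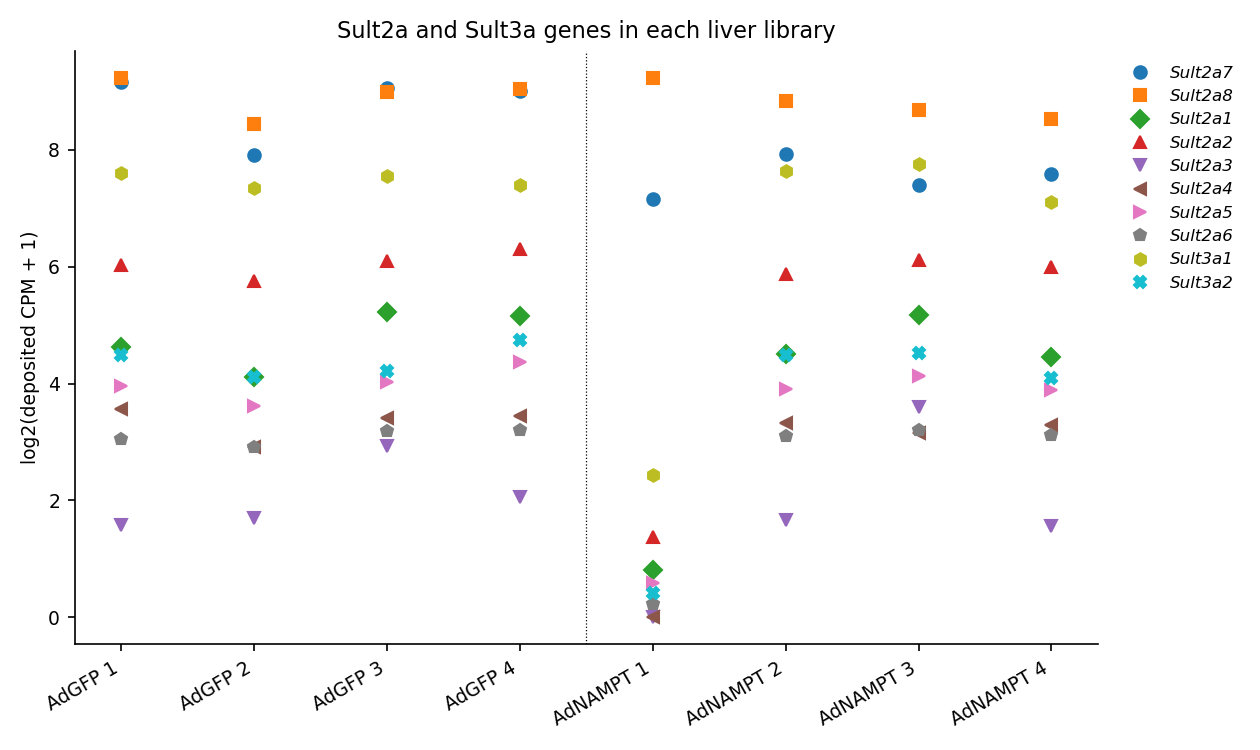
Level of each Sult2a and Sult3a gene, as log2(deposited CPM + 1) on the y axis, in each of the 8 livers (x axis, AdGFP left of the dotted line, AdNAMPT right), with a marker per gene. In AdNAMPT replicate 1, 8 genes drop towards 0 while Sult2a7 and Sult2a8 are at 142 and 599 CPM. For Sult2a7 this is the lowest of the 8 livers.

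**Figure D4:**
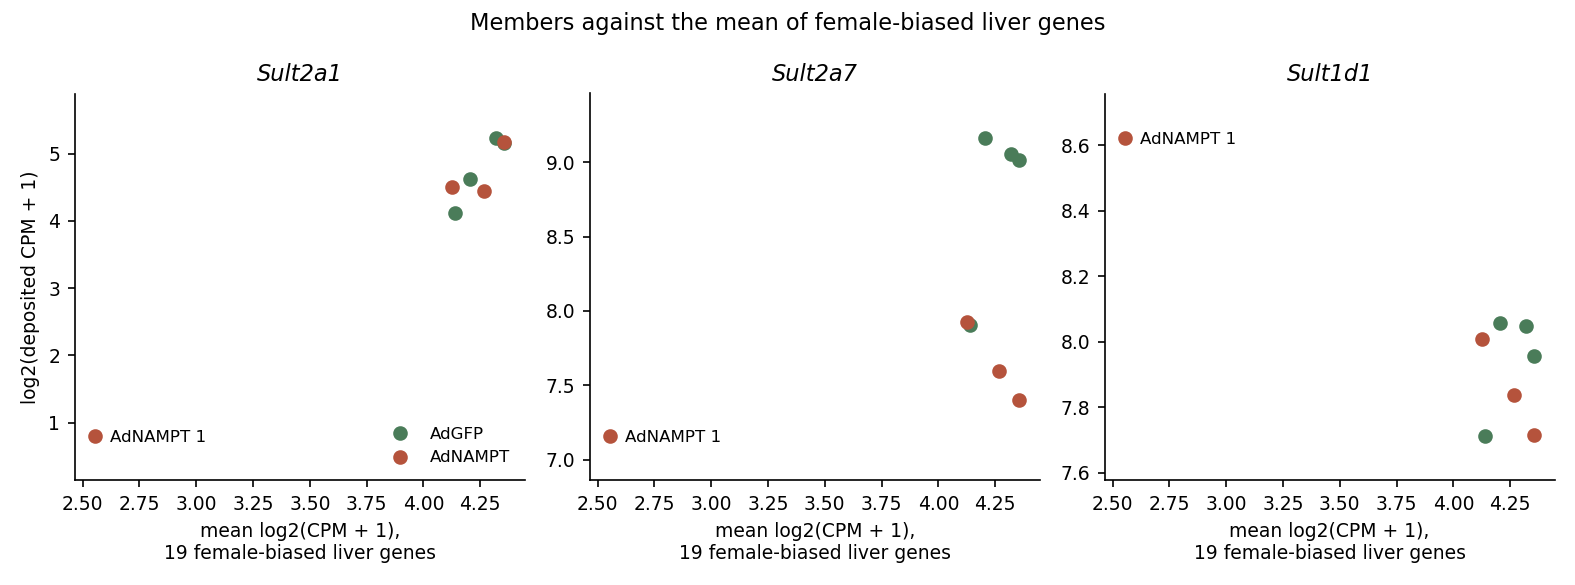
Level of Sult2a1, Sult2a7 and Sult1d1, as log2(deposited CPM + 1) on a y axis of its own in each panel, against the mean log2(CPM + 1) of 19 female-biased liver genes (x axis), a point per liver in green for AdGFP and red for AdNAMPT. AdNAMPT replicate 1 lies alone at 2.56 on the x axis. It is lowest for Sult2a1 and Sult2a7 and highest for Sult1d1. Among the other 7 livers, at similar x values, Sult2a7 is high in 3 AdGFP livers. Sult2a7 is lower in AdGFP replicate 2 and the other AdNAMPT livers.

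The members' levels across the 8 livers followed these lines. Sult2a1 had a Pearson r of 0.987 with Sult2a2 and 0.979 with Sult3a1, but 0.575 with Sult2a7 and -0.772 with Sult1d1. Sult2a7 had an r of 0.837 with Sult1a1. Sult1d1 and Sult5a1 had an r of 0.826. These values are on log2 TMM-scaled CPM with n = 8, and those of Sult2a1 rest largely on AdNAMPT replicate 1. Sult1d1 and Sult5a1 were both highest in that liver, so their r also leans on it. All points share the groups and the library depths, so the values are a description.

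Promoter windows from RefSeq (GRCm38.p6) were found for 18 of 22 family genes and 6 of 8 members; Sult2a1, Sult2a2 and Sult2a7 were among those without an entry. The windows of Sult2a3 to Sult2a6, which were low together in AdNAMPT replicate 1, are printed beside that of Sult2a8, which was not. Each is the 120 bases before the annotated start, read in the direction of the gene, and capitals mark matches on either strand to the 5 motifs searched over 250 bases. These were AGGTCA and AGTTCA, half-sites of nuclear receptors, the STAT palindrome TTCNNNGAA, ATCAAT, a core bound by HNF6 and CUX2, and the TATA box TATAAA.
Sult2a3 (chr7:14123049-14123168, minus strand): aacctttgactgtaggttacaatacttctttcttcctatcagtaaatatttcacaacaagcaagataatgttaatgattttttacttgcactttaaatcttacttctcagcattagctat
Sult2a4 (chr7:13989589-13989708, minus strand): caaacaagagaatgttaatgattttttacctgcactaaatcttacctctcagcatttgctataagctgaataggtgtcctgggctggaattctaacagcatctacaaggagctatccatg
Sult2a5 (chr7:13623847-13623966, plus strand): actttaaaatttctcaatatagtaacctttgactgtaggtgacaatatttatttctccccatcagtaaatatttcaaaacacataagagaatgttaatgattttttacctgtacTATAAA
Sult2a6 (chr7:14254871-14254990, minus strand): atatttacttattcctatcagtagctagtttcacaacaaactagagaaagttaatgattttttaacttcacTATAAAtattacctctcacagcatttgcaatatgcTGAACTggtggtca
Sult2a8 (chr7:14438552-14438671, minus strand): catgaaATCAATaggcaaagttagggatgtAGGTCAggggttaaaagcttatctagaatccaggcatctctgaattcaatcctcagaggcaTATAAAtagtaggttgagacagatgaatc

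TATAAA stood in the printed windows of Sult2a5, Sult2a6 and Sult2a8. That of Sult2a6 also held AGTTCA on the other strand, and that of Sult2a8 ATCAAT and AGGTCA. RefSeq gives Sult2a8 another start farther upstream, whose window, not printed, held neither ATCAAT nor AGGTCA. The windows of Sult2a3 and Sult2a4 had no match in the bases printed, and each had AGTTCA on the other strand farther from the start. Sult2a5 and Sult2a6 also held AGTTCA on the other strand beyond the printed bases. The printed start of Sult2a8 had a further AGGTCA and ATCAAT there. When the 250 bases before each start were aligned, identity over the aligned bases was 92.7% between Sult2a4 and Sult2a3 (192 bases), 91.8% between Sult2a4 and Sult2a5 (171 bases) and 63.3% between Sult2a4 and Sult2a8 (210 bases). ATCAAT was found in 6.72% of all 32851 promoter windows, AGGTCA in 14.0%, AGTTCA in 11.8%, TTCNNNGAA in 7.02% and TATAAA in 12.4%. Sult3a1 and Sult3a2 were also low in AdNAMPT replicate 1, and their windows are not printed. That of Sult3a1 held the HNF6 and CUX2 core on the other strand, at bases -74 to -69 from the start. It also held the STAT palindrome, at bases -109 to -101. The core was therefore not particular to Sult2a8. The window of Sult3a2 held TATA box matches only. Whether any motif goes with the low levels, seen in that liver alone, was not tested. A match is a run of letters and not a measured site, and binding was not measured here. The starts are also uncertain. Of 165 windows checked across all genes, 94 had the first 20 bases after the start in a GENCODE transcript of the gene.

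Levels per length were compared within livers with deposited RPKM, which is CPM per kilobase of exon. Over both groups Sult2a7 and Sult1a1 led at 362 ± 202 and 327 ± 53.3 RPKM (SD, n = 8), followed by Sult1d1 at 105 ± 23.8, Papss2 at 82.1 ± 21.5, Sult1b1 at 26.8 ± 3.17, Sult2a1 at 23.2 ± 11.8, Sult1c2 at 4.35 ± 0.629 and Sult5a1 at 1.49 ± 1.64 RPKM. Among 7 neighbouring pairs, 3 differed by an exact paired sign-flip permutation test over 8 livers (two-sided, Benjamini-Hochberg over the 7 pairs): Sult2a7 was above Sult1d1 in 7 of 8 livers, Papss2 above Sult1b1 in 8 of 8 and Sult1c2 above Sult5a1 in 7 of 8 (adjusted p = 0.0365 for each). The pairs Sult1a1 and Sult2a7 (exact adjusted p = 0.75), Sult1d1 and Papss2 (0.131), Sult1b1 and Sult2a1 (0.401) and Sult2a1 and Sult1c2 (0.0684) did not differ beyond their spread. The order of the first pair turned over between the groups: Sult2a7 was above Sult1a1 in 4 of 4 AdGFP livers (means of 517 ± 169 and 350 ± 63.3 RPKM; SD, n = 4), by very little in AdGFP replicate 2 (266.3 against 266.1 RPKM), and in 0 of 4 AdNAMPT livers (207 ± 47.3 and 304 ± 35.1 RPKM). Sult2a7 was chosen for its difference between these groups, so this turn restates that difference and is a description. Sult2a1 and Sult1b1 also changed places by their means. Sult2a1 was at 27.2 and Sult1b1 at 26.7 RPKM in AdGFP, and at 19.2 and 26.9 RPKM in AdNAMPT. The other members kept their place. The count of 3 was 0 without any of AdGFP replicates 1 to 4 or AdNAMPT replicates 2 to 4, and 4 without AdNAMPT replicate 1.

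**Figure D5:**
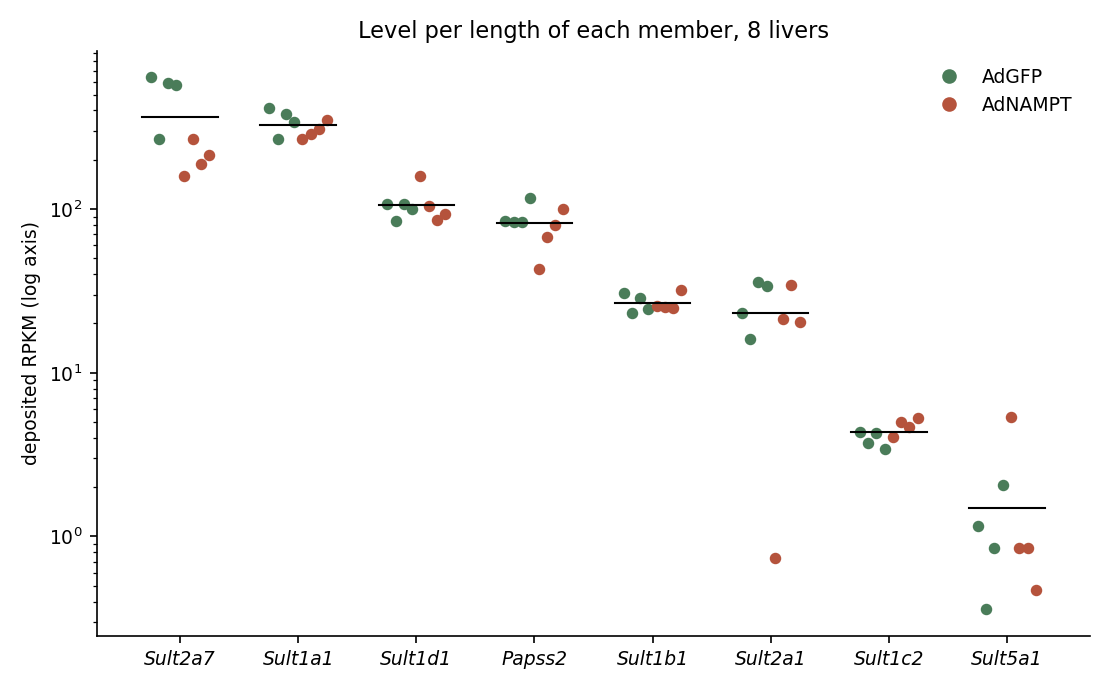
Deposited RPKM (y axis, log scale) of each member in 8 livers, ordered by mean; green points are AdGFP, red points AdNAMPT and the line is the mean of 8. Sult2a7 and Sult1a1 lead at 362 and 327 RPKM, and Sult2a7 is spread over 158 to 637 RPKM, with the groups overlapping at AdGFP replicate 2 (266 RPKM) and AdNAMPT replicate 2 (269 RPKM).

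Other genes of sulfation were counted from lists for PAPS and sulfate supply, sulfatases and the sulfotransferases of the Golgi, which act on proteins and sugar chains. Together with the other cytosolic sulfotransferases these lists held 86 genes, of which 54 were tested. Limma called 0 of 54, edgeR 0 and DESeq2 1, and 9 had an unadjusted p under 0.05, 3 with a higher and 6 with a lower estimate, which is 16.7% against 9.69% of all genes. The median log2 fold change was -0.08.

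The gene called by DESeq2 was Arsa, the lysosomal arylsulfatase that removes sulfate from sulfatide. It measured 31.99, 31.3, 27.7 and 30.2 CPM in AdGFP and 42.6, 40.4, 42.4 and 42.4 CPM in AdNAMPT, without overlap. The estimate was a log2 fold change of 0.38 with an SE of 0.073 (adjusted p = 0.0839 by limma and 0.0121 by DESeq2). C230037L18Rik overlaps Arsa on the other strand and had 5 to 44 counts a library, and whether the counting used strand is not given. Sulf1, an extracellular heparan sulfatase, was at 0.56 (limma adjusted p = 0.712), and of 12 sulfatases tested 6 estimates were higher and 6 lower.

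Of 20 genes of PAPS and sulfate supply, 14 estimates were lower and 6 higher, and 5 had an unadjusted p under 0.05, all lower. Gphn, needed for the molybdenum cofactor, was at a log2 fold change of -0.21 (limma adjusted p = 0.439), and Suox, the molybdenum enzyme that oxidises sulfite to sulfate, at -0.31 (limma adjusted p = 0.445). Of 13 Golgi sulfotransferases, 7 estimates were higher and 6 lower, and 2 had an unadjusted p under 0.05. These were Ndst2, which modifies heparan sulfate (0.25, limma adjusted p = 0.421), and Gal3st1, which makes sulfatide (1.27, limma adjusted p = 0.492).

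Receptors and factors known to act at Sult promoters were read in the same way, and limma called 0 of 22, edgeR 0 and DESeq2 0, with 5 at an unadjusted p under 0.05. Foxa2, a liver factor that opens chromatin, was at 0.47 (limma adjusted p = 0.338), and Cux2, a female-biased repressor, at 1.25 (limma adjusted p = 0.357) on levels of 0.416 to 1.77 CPM.

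The sex-biased lists gave 0 calls of 16 female-biased and 0 of 16 male-biased genes tested by limma, edgeR and DESeq2, with 3 and 2 at an unadjusted p under 0.05. Cyp2b13, a female-biased cytochrome P450, measured 298 to 499 CPM in AdGFP and 10.2 to 259 CPM in AdNAMPT (log2 fold change -1.43, limma adjusted p = 0.503). Cyp2b9 was at -0.44 and Cyp4a10 at -0.08. Among male-biased genes, Mup21, a major urinary protein, was at 0.87 (limma adjusted p = 0.329), Serpina1e, a serine protease inhibitor, at -1.41 (limma adjusted p = 0.487), Mup3 at 0.19, Cyp2d9 at 0.55 and Nudt7 at 0.02. Mup21 was called without AdNAMPT replicate 1, at 0.69.

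Markers of other liver cells were present at low levels in every group. The 7 Kupffer cell and macrophage markers summed to 257 to 318 CPM in AdGFP and 186 to 310 CPM in AdNAMPT, and all 7 estimates were lower. Limma called 0 of them and edgeR 0, 3 had an unadjusted p under 0.05, and DESeq2 called 1, Vsig4 (log2 fold change -0.51, limma adjusted p = 0.211); Timd4 was at -0.83 (limma adjusted p = 0.326). Cholangiocyte markers summed to 26.7 to 42.2 CPM in AdGFP and 29.6 to 44.4 CPM in AdNAMPT, with Sox9 at 0.81 and Krt19 at -0.37. Sinusoidal endothelial markers summed to 340 to 421 and 357 to 427 CPM, with Lyve1 at 0.34 and Pecam1 at 0.13, and stellate cell and fibroblast markers to 363 to 418 and 389 to 442 CPM, with Col1a1 at 0.64 and Col3a1 at 0.33.

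Neutrophil markers summed to 3.94 to 6.65 CPM in AdGFP and 3.16 to 7.55 CPM in AdNAMPT, with S100a9 at 0.56 and S100a8 at 0.39, and T and B cell markers to 0.804 to 1.57 and 1.33 to 3.18 CPM, where 0 of 7 passed the filter. Among hepatocyte markers Tat, an enzyme of tyrosine breakdown, was at -0.56 (limma adjusted p = 0.318) and Cps1, of the urea cycle, at -0.27. Apart from Vsig4, limma, edgeR and DESeq2 called 0 of these markers. No marker was at 0 in every library, and the part of other cells in the members' values was not tested.

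The genes whose level was most like that of Sult2a7 over the 8 livers, by Pearson r of log2 TMM-scaled CPM among 12262 genes, were Cyb5a (0.980), the electron carrier cytochrome b5, Slc17a3 (0.973), an anion transporter, Ganab (0.968), of glycoprotein folding, Mtap (0.966), of methionine salvage, and Mat1a (0.965), which makes S-adenosylmethionine in liver. Cyb5a measured 1852, 1456, 1736 and 1674 CPM in AdGFP and 1440, 1529, 1484 and 1493 CPM in AdNAMPT, low in AdGFP replicate 2 as Sult2a7 was. Its r with Sult2a7 was 0.913 within AdGFP and 0.988 within AdNAMPT. The most opposed genes were Plk2 (-0.973), a kinase, Aggf1 (-0.972) and Rab11fip2 (-0.963). These are the extremes of many genes over 8 points that share the groups and the library makeup.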

How the data were processed

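Whole liver RNA of 8 mice was sequenced, 1 library a mouse. Per the study's methods and the submitters' processing notes, the authors aligned 50-base single reads to GRCm38 with STAR and counted uniquely aligned reads per gene with featureCounts (Subread). The notes give STAR 2.4.0b and featureCounts 1.4.5, and the methods write the STAR version differently. The labels name Ribo-Zero while the methods describe poly-A selection. The deposited counts are whole reads for 41388 features. The deposited CPM are counts scaled to the library total, and the deposited RPKM are those CPM per kilobase of exon; both were made by the authors. Symbols came from GENCODE M21 (40340 features matched) and coordinates from the deposited files.

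As in the study, 355 ribosomal RNA features and genes not above 1 CPM in at least 3 libraries were left out, leaving 12270. TMM-scaled counts were fitted with limma 3.58.1 (voomWithQualityWeights, lmFit, eBayes), group as the only term, and called at an adjusted p (Benjamini-Hochberg) up to 0.05. edgeR 4.0.16, DESeq2 1.42.0, Biopython 1.88, matplotlib 3.10.9, scipy 1.17.1, numpy 2.4.6 and pandas 2.3.3 under Python 3.11.15 and R 4.3.3 were also used. The fits were tested on simulated data. Levels used log2(RPKM + 0.1).

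Members and lists were chosen with earlier results of these data known. Named were all members, other tested cytosolic sulfotransferases, called genes or the 2 of smallest unadjusted p in each list, the 3 highest of the sex-biased lists, and the 5 most like and 3 most opposed to Sult2a7. Replicate numbers were not used to pair the mice in the main fit. Floors cover counting error only. The result of 1 gene that this rule names is not reported here.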

Additional observations from a re-analysis of the deposited data

Results flagged for a closer look

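In 38 groups of 4 livers, 8 had a sample whose gap to its neighbour, over the range, passed Dixon's critical value for 4 values, where chance gives about 1.9. AdNAMPT replicate 1 accounted for 5 of them. Sult2a2 was at 1.58 CPM there against 57.8 to 68.6 CPM in the other 3 AdNAMPT livers. Sult2a4 was at 0.0 CPM against 7.95 to 9.01 CPM, and Sult2a6 at 0.167 CPM against 7.58 to 8.25 CPM. Sult5a1 was at 9.41 CPM against 0.825 to 1.51 CPM. The mean log2(CPM + 1) of female-biased liver genes was 2.56 against 4.13 to 4.36. Sult2a2, Sult2a4 and Sult2a6 had a Pearson r of 0.997 to 0.999 with each other over the 8 livers. The 38 groups are therefore not independent, and the flags are not separate events.

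Sult2a7 was at 239 CPM in AdGFP replicate 2, and at 516 to 572 CPM in the other 3 AdGFP livers. Sult1b1 was at 88.7 CPM in AdNAMPT replicate 4, and at 68.9 to 71.4 CPM in the other 3. Papss2 was at 423 CPM in AdGFP replicate 4, and at 301 to 305 CPM in the other 3. What sets these livers apart was not tested.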

How the results depend on the processing

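The count of called genes was 34, 75 with DESeq2, and 28 to 38 without 1 replicate. Calls in the sulfation lists other than the members were 0, 1 with DESeq2 and 1 with library size only, which in both cases was Arsa. The count of neighbouring levels that differed was 3, and 0 to 4 without 1 replicate, where 7 libraries also raise the smallest p the test can give. With the replicate number as a block, 41 genes were called and Sult2a7 was not. Deviations of same-numbered mice correlated at 0.225, -0.045, 0.213 and 0.005, and 3 of 8 livers correlated best with their own number. So few values show no clear pairing, but they cannot exclude a pairing or batch by number.

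Of 736 values of 46 single genes under the alternatives, 28 changed sign, and the cause was not tested. Members gave 11 of them, 5 for Sult1d1 and 6 for Sult5a1, and 6 other genes gave 17. The Sult2a3 log2 estimate was 0.073 with edgeR, 0.013 with DESeq2, 0.084 with the replicate block and 0.084 without AdNAMPT replicate 1 and AdGFP replicate 2. With those 2 livers left out, Cyp4a10 was at 0.026, Mup3 at -0.273, Nudt7 at -0.066 and Cyp2d9 at -0.019. Without 1 replicate at a time, Sult2a3 ran from -1.422 to 0.197, Cyp4a10 from -0.148 to 0.044, Mup3 from -0.17 to 0.57, Nudt7 from -0.066 to 0.083 and Pecam1 from -0.014 to 0.267.

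With 4 livers a group, the intervals of Sult2a1, Sult5a1 and the paralogs low in AdNAMPT replicate 1 reach over both directions. Those of Sult1b1, Sult1c2, Sult1d1 and Sult2a8 do so as well.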
